A study of Mus musculus with 6 samples.

Results

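The genes described here encode the building blocks of the cell's filaments: the cytoplasmic actins Actb and Actg1, the actin-binding proteins Pfn1 and Cfl1, the tubulins Tuba1a, Tuba1b, Tubb3, Tubb5 and Tubb6, and the intermediate filament protein Vim. They were chosen by name, and all 10 had a row among the 17169 gene entries of the deposited table. Their levels were followed in 6 RNA sequencing libraries from 3 mouse cell lines that the titles call BBC, ZNF and BCRF8C. Their source was bone marrow of Balb/c animals, and they carry the label SCLL, for stem cell leukemia/lymphoma, in which a fused FGFR1 kinase drives the blood cancer. Neither the fusion partners nor clonality of the lines is named in the labels. Each line was exposed for 24 h to the FGFR inhibitor BGJ398, also called infigratinib, or to DMSO alone. Doses of 30, 3 and 1.5 nM are listed, and read in the order of the lines they belong to BBC, ZNF and BCRF8C, so that dose and line cannot be told apart. There was 1 library per line and agent, and the design text asks how the transcriptomes differ with and without FGFR1 inhibition.

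Actin monomers assemble into filaments that carry cell shape, adhesion and migration, and profilin and cofilin set how fast filaments grow and are taken apart. Alpha and beta tubulin pair into the dimers of which microtubules, and with them the mitotic spindle, are built, and cells choose among several near-identical tubulin genes for each subunit. Vimentin forms the flexible intermediate filaments of mesenchymal and most blood cells, including lymphocytes. Transcription of actin and of several actin-binding genes is known to depend on serum response factor (SRF), which binds a CArG box, and the level of free tubulin dimers is known to control the decay of tubulin messages.

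How well the table can separate these genes depends on their sequences. Over the coding sequence of the GENCODE M21 transcripts, Tuba1a and Tuba1b were identical at 1333 of 1356 positions (98.3%), and 43.4% of all 50-base windows of the Tuba1a transcript also occurred in that of Tuba1b. Actb and Actg1 were identical at 1000 of 1128 coding positions (88.7%), but shared only 1.60% of 50-base windows of Actb. Tubb5 shared 0 windows with Tubb4b or Tubb3. The labels name no read length, so a window of 50 bases is only a guide, and the split of reads between Tuba1a, Tuba1b and Tuba1c is uncertain. The first 60 coding bases of the actins show how this pair differs, with the 9 positions that differ in capitals:
Actb: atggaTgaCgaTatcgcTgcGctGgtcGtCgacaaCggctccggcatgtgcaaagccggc
Actg1: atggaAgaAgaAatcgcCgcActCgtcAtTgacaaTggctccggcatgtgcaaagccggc

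Upstream of the start site the genes do not look alike. RefSeq promoter windows (GRCm38.p6, from 250 bases before to 50 after the annotated start) were used for 8 of the 10 genes. No window of Actb or Tubb6 was used, so the motif counts do not cover these genes. A CArG box was matched only in the Actg1 window among these 8, and in 1.63% of all 32851 windows. CCAAT, searched on both strands, was found in 6 of the 8 (Actg1, Cfl1, Tuba1a, Tubb3, Tubb5 and Vim) and in 37.4% of all windows. GGGCGG, also on both strands, was in 7 of the 8, all but Vim, and in 35.7% of all windows. The only TATAAA was in the Vim window, which places it among 13.6% of all, and CACGTG was in the windows of Actg1 and Tubb5 (7.15% of all). The 200 bases before the start are printed for 4 genes whose values are compared below, in lower case with matches to the motifs named above, other than GGGCGG, in capitals. These letters are a description of the windows, and binding was not measured:
Actg1 (chr11:120348496-120348695, minus strand): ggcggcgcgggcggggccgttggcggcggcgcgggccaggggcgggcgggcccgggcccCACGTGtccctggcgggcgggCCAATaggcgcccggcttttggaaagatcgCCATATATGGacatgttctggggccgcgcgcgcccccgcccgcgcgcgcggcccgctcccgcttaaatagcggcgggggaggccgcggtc
Vim (chr2:13574111-13574310, plus strand): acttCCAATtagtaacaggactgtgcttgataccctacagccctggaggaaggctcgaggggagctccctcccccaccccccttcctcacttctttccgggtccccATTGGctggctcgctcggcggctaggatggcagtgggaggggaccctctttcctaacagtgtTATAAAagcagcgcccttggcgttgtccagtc
Tuba1a (chr15:98953502-98953701, minus strand): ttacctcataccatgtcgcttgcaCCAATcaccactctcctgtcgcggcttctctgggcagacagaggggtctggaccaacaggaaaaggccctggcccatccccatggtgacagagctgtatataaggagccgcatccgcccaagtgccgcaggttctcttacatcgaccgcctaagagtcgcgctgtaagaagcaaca
Tuba1b (chr15:98934391-98934590, minus strand): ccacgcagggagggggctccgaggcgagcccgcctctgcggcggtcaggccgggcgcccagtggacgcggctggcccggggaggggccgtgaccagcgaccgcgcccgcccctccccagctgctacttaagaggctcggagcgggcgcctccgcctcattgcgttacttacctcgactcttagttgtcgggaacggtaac

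Values are FPKM, in which fragment numbers are divided by gene length and library total, which allows levels of different genes to be set side by side. The sequencing depth behind them is unknown. Ratios are differences of log2(FPKM + 1), BGJ398 minus DMSO, a scale that understates the change of low genes. The whole table moved with BGJ398: over entries averaging 1 FPKM or more within a line, the median log2 ratio was -0.87 in BBC, -0.48 in ZNF and -0.80 in BCRF8C. FPKM summed over all entries were 2.53 times lower in BBC, 2.99 times in ZNF and 2.89 times in BCRF8C. The 3 highest entries held 32.2%, 60.3% and 31.0% of the DMSO sums. In ZNF the sum was lower by more than Actb (2.42 times), Tubb5 (2.50), Pfn1 (2.07), Cfl1 (1.87), Actg1 (1.88) and Tuba1a (2.69). Relative to the sum these genes were not lower there, while Tuba1b (5.74), Tubb3 (11.9) and Vim (19.6) were. The sum in ZNF follows its 3 highest entries in large part. Relative to the median ratio of all entries in ZNF, 9 of the 9 genes above 0 there were lower. Entries with high DMSO levels had lower ratios still. Of the entries at 100 FPKM or more in DMSO, a level chosen after the values were seen, 86.3% were at least 2-fold lower in BBC, 49.6% in ZNF and 92.7% in BCRF8C. Actb, Pfn1, Cfl1, Tuba1b and Tubb5 were in that range in all 3 lines, and Actg1 and Vim in ZNF and BCRF8C. B lineage markers (8 of 8 with a row) summed to 1448 FPKM in BBC with DMSO, against 3.09 in ZNF and 0.654 in BCRF8C, and T lineage markers (5 of 8 with a row) to 32.6, 839 and 4.90. With BGJ398 these sums were 747, 9.54 and 9.10 FPKM for the B lineage and 34.7, 534 and 13.4 for the T lineage, and their part in the results was not tested.

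In DMSO, Actb, Pfn1, Cfl1 and Tubb5 were among the most abundant in every line. Actb, the beta cytoplasmic actin, stood at 3137 FPKM in BBC, 1612 in ZNF and 2984 in BCRF8C, above 99.4% of the entries in ZNF and a larger share in BBC and BCRF8C. Tubb5, the main beta tubulin gene here, was the most even of the 10, at 737, 828 and 769 FPKM (mean 778 ± 46.5, SD, n = 3 lines). Profilin, which delivers actin monomers to growing filament ends, had 626, 522 and 923 FPKM of Pfn1, and cofilin, which severs old filaments, had 524, 388 and 770 FPKM of Cfl1. For Actb, Pfn1, Cfl1 and Tubb5, no pair of lines in DMSO was 2-fold apart.

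**Figure D1:**
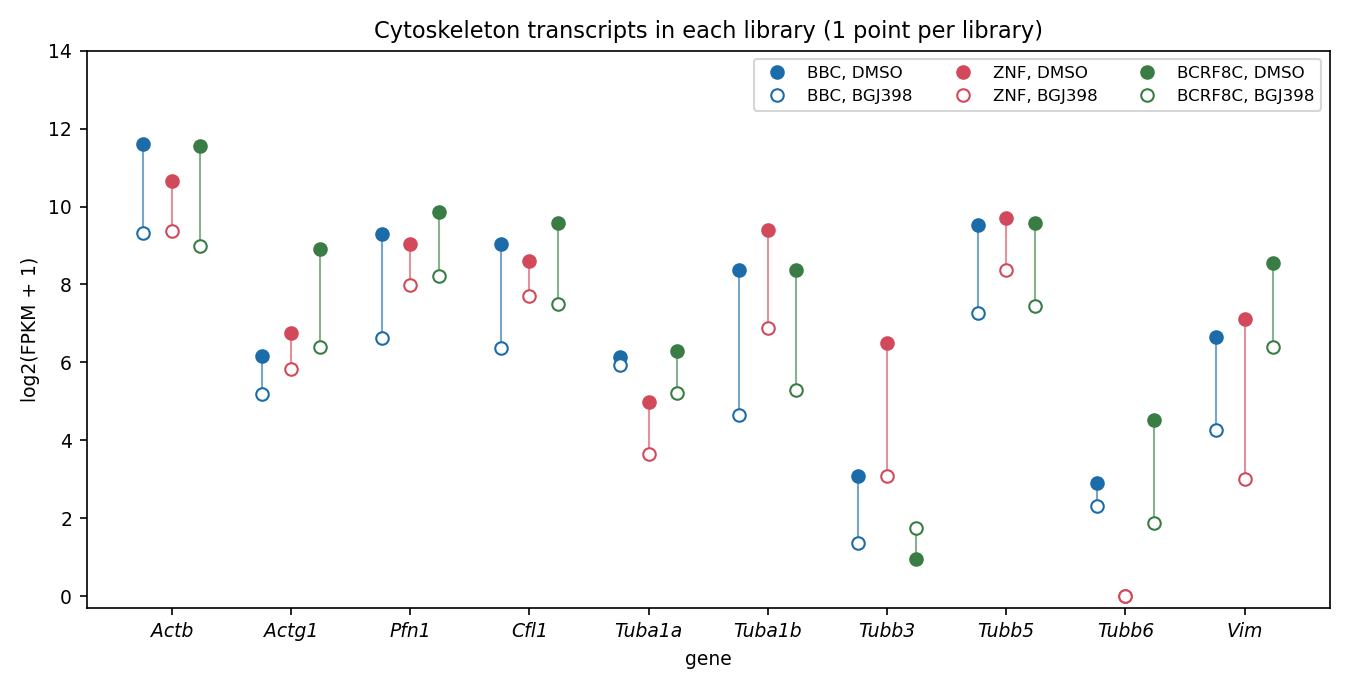
Level of each of the 10 transcripts in each library, as log2(FPKM + 1), with filled points for DMSO, open points for BGJ398 and a line joining both libraries of a cell line. Actb, Pfn1, Cfl1, Tuba1b, Tubb5 and Vim have all 3 DMSO points above all 3 BGJ398 points, and Tubb3 in BCRF8C is the only pair with the open point on top.

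The lines differed most in Tubb3, Tubb6, Actg1 and Vim. Tubb3, the beta tubulin best known from neurons, was at 7.42 FPKM in BBC, 88.7 in ZNF and 0.932 in BCRF8C. ZNF thus stood above BBC by 3.41 on the log2 scale, and BCRF8C minus ZNF was -5.54. Neuronal markers did not accompany it: 3 of 8 had a row, and Syt1, Rbfox3 and Dcx together came to 0.550 FPKM in ZNF with DMSO, with Dcx listed at 0. The table gives Tubb3 a span of 4435365 bases on chromosome 8 (122434260 to 126869624) that is listed for 64 entries, so the position of the gene itself is not resolved and its estimate is uncertain.

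Tubb6, a beta tubulin of minor abundance, ran opposite to Tubb3. It was at 22.0 FPKM in BCRF8C and 6.52 in BBC, and was listed at 0 in both ZNF libraries. Whether a listed 0 stands for no expression or for a failed estimate is not known. Differences of Tubb6 against ZNF, which are counted and tested as log2(FPKM + 1) in what follows, depend on the pseudocount. Vim was at 377 FPKM in BCRF8C, 138 in ZNF and 99.0 in BBC, and BCRF8C was above BBC by 1.92 and above ZNF by 1.45 on the log2 scale. Actg1, the gamma cytoplasmic actin, was at 477 FPKM in BCRF8C, 106 in ZNF and 70.7 in BBC. BCRF8C therefore held the highest Vim, Actg1 and Tubb6 of the 3 lines, while its Actb lay close to that of BBC.

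Both alpha tubulin genes set ZNF apart in DMSO. Tuba1b was at 673 FPKM there, against 333 in BBC and 328 in BCRF8C, and Tuba1a at 30.8 FPKM, against 69.1 and 77.3. Between lines in DMSO, 2 of the 10 genes were at least 2-fold higher in ZNF than in BBC (8.83% of all entries) and 2 at least 2-fold lower (19.6%), together 4 against 28.4% of entries. The lower ones include Tubb6. For BCRF8C against BBC, 3 were higher (11.5%) and 1 lower (19.4%), together 4 against 30.9%. For BCRF8C against ZNF, 4 were higher (17.8%) and 2 lower (14.8%), together 6 against 32.6%, the higher ones again with Tubb6. These counts compare single libraries and have no replicate check.

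A test of the lines was possible only over both agents together, with the agent as a term in limma, so that each line had 2 libraries. At an adjusted p under 0.05, 1 of the 10 genes differed between BCRF8C and ZNF, where 5.49% of all genes did: Tubb6, at 3.20 (SE 0.66) on the log2 scale with a limma adjusted p = 0.0489, a value that rests on the listed zeros of ZNF. Tubb3 (-3.43, SE 0.91, limma adjusted p = 0.0885) and Vim (2.42, SE 0.62, limma adjusted p = 0.0801) did not pass between these lines. None of the 10 passed for BCRF8C against BBC (3.32% of all genes) or ZNF against BBC (2.91%), where Tubb6 (-2.61, limma adjusted p = 0.110) and Tuba1a (-1.72, limma adjusted p = 0.132) came closest. At an unadjusted p under 0.05 stood 2 of the 10 for BCRF8C against BBC (Actg1 and Vim), where 17.7% of all genes did. For ZNF against BBC there were 4 (Tuba1a, Tuba1b, Tubb3 and Tubb6; 19.5% of all genes) and for BCRF8C against ZNF also 4 (Tuba1a, Tubb3, Tubb6 and Vim; 21.8%).

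With BGJ398 the filament genes were lower nearly throughout. Across the 3 lines, with the line as a block, 4 of the 10 fell in limma (Tuba1b, Vim, Tubb5 and Cfl1), none rose and 6 did not pass, while 30.2% of all 14232 genes tested fell and 6.61% rose. Without BBC 2 of the 10 fell, as did 988 of 13512 genes, and without BCRF8C 3 passed, as did 1549 of 13779 genes. Without the line as a block none of the 10 passed (6 at an unadjusted p under 0.05, as did 39.9% of all genes). At an unadjusted p under 0.05 stood 7 of the 10, against 54.9% of all genes. In 8 of the 10 the ratio was below 0 in all 3 lines, as in 55.7% of all genes, and in 6 all DMSO libraries lay above all BGJ398 libraries, as in 35.1%. The median log2 ratio of the 10 was -1.83, that of all genes tested -0.69. Much of that distance went with level. After subtracting, line by line, a smooth trend of the ratio against expression level, the medians were -0.31 and 0.03, and limma called none of the 10 (1 at an unadjusted p under 0.05, against 21.7% of all genes). Median-of-ratios scaling left medians of -1.09 and -0.07, quantile normalization -0.55 and -0.09, and none of the 10 passed on these scales either (6 and 1 at an unadjusted p under 0.05, against 40.4% and 23.5% of all genes). Among entries above 0 in all 6 libraries, 7 of the 9 left fell, where 42.4% of all genes did, with Actg1 (adjusted p = 0.0245), Pfn1 (0.0302) and Tubb3 (0.0453) added. Of all genes called, 82.0% fell as deposited, against 25.0% of the 4 called after median-of-ratios scaling and 33.3% of the 3 called after quantile normalization. In these bulk libraries, fewer cells of a kind and less RNA per cell cannot be told apart.

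Tuba1b gave the lowest mean ratio of the 10. It went from 333 (BBC), 673 (ZNF) and 328 FPKM (BCRF8C) to 24.3, 117 and 38.1 FPKM, which is 13.7, 5.74 and 8.61 times lower. Every DMSO library stood above every BGJ398 library. The log2 ratios were -3.72, -2.51 and -3.07, averaging -3.10 ± 0.61 (SD, n = 3 lines; limma adjusted p = 0.0348), and Tuba1b fell. Within each line the gene was in the lowest 1.29%, 0.878% and 2.96% of entries by ratio. With the expression trend removed it was still at -1.94, -1.60 and -1.06, the only one of the 10 at least 2-fold lower in all 3 lines on that scale, though it did not pass there (limma adjusted p = 0.119).

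Its neighbour on chromosome 15, Tuba1a, was also lower in all 3 lines as deposited, but by less in each. Tuba1a was at 69.1 FPKM with DMSO and 60.5 with BGJ398 in BBC, at 30.8 and 11.5 in ZNF, and at 77.3 and 36.2 in BCRF8C. In BBC the libraries were thus close to each other, and the groups overlapped. Its mean ratio of -0.87 ± 0.61 (SD, n = 3 lines) did not pass (limma adjusted p = 0.111) and turned positive when quantile normalized (0.36) or freed of the expression trend (0.52). Tuba1b was 4.83 times as abundant as Tuba1a in BBC with DMSO and 0.402 times with BGJ398, so their order was exchanged in that line. The same ratio went from 4.24 to 1.05 in BCRF8C and from 21.8 to 10.2 in ZNF, lower with BGJ398 in 3 of 3 lines.

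The makeup of the alpha tubulin messages shifted with this. The 5 alpha tubulin genes with a row (Tuba1a, Tuba1b, Tuba1c, Tuba4a and Tuba8) together went from 499 FPKM to 104 in BBC, 830 to 173 in ZNF, and 585 to 101 in BCRF8C. Tuba1a made up 13.8% of this sum in BBC with DMSO and 58.4% with BGJ398, 13.2% and 35.7% in BCRF8C, and 3.71% and 6.62% in ZNF. Tuba1b held 66.8% and 23.5% in BBC, 56.0% and 37.6% in BCRF8C, and 81.0% and 67.7% in ZNF. A share within a library does not depend on how libraries are scaled to each other, but it does depend on how reads were divided between these near-identical coding sequences. Without replicates within a line these shares carry no error.

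**Figure D2:**
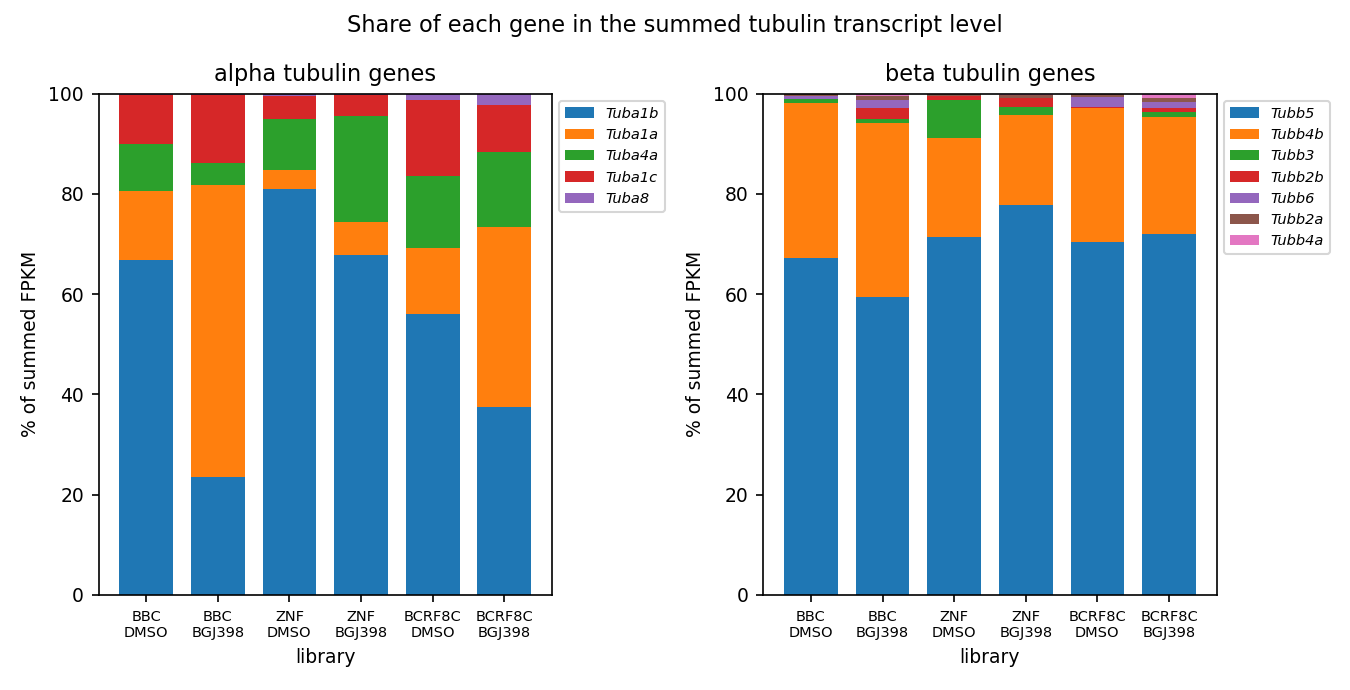
Share of each gene in the summed FPKM of 5 alpha tubulin genes (left) and 7 beta tubulin genes (right), 1 bar per library. The Tuba1a share is larger with BGJ398 in each line, most in BBC (13.8% to 58.4%), while Tubb5 holds between 59.5% and 77.7% of the beta sum in all 6 libraries.

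Beta tubulin kept its main gene. Tubb5 went from 737 (BBC), 828 (ZNF) and 769 FPKM (BCRF8C) to 152, 331 and 174 FPKM, and no BGJ398 library reached a DMSO library. Its log2 ratio averaged -1.91 ± 0.51 (SD, n = 3 lines; limma adjusted p = 0.0441), and it fell. The call ended without BBC (adjusted p = 0.269) and without BCRF8C (adjusted p = 0.213), and with the expression trend removed the mean was -0.25 and the value in BCRF8C 0.22. Its share of the beta tubulin sum went from 67.2% to 59.5% in BBC, while ZNF had 71.3% and 77.7% and BCRF8C 70.4% and 72.0%. The ratio of summed beta to summed alpha tubulin, 2.20, 1.40 and 1.87 in BBC, ZNF and BCRF8C with DMSO, was 2.47, 2.46 and 2.38 with BGJ398. The 3 lines thus lay closer together with BGJ398 than with DMSO in this ratio, which was not tested.

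Tubb3 had ratios of opposite sign between lines as deposited. It went from 88.7 to 7.44 FPKM in ZNF and from 7.42 to 1.58 in BBC, and from 0.932 to 2.37 in BCRF8C, where both values are low. The log2 ratios were -3.41, -1.71 and 0.80, and the mean of -1.44 ± 2.12 (SD, n = 3 lines) did not pass (limma adjusted p = 0.151). Without BCRF8C, the only line with a ratio above 0, it did (mean -2.56, limma adjusted p = 0.000252). It did not pass without BBC (mean -1.30, limma adjusted p = 0.114) or without ZNF (mean -0.45, limma adjusted p = 0.649). Leaving out the line of opposite sign makes a low p likely, and with so few lines limma leans on the variances of other genes. In ZNF only 0.451% of entries had a lower ratio than Tubb3, and on the scale with the expression trend removed the ratio there was -2.65. In BCRF8C, median-of-ratios scaling gave 1.28, quantile normalization 0.09 and removal of the trend -0.16, so the opposite sign was not kept on the last of these scales. Its share of the beta tubulin sum in ZNF went from 7.63% to 1.75%, while the neuronal markers summed to 0.550 FPKM with DMSO and 5.15 with BGJ398.

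Tubb6 went from 22.0 to 2.66 FPKM in BCRF8C and from 6.52 to 3.94 in BBC. The groups overlapped, since the ZNF libraries were at 0 with either agent. Its mean ratio of -1.08 ± 1.39 (SD, n = 3 lines) counts ZNF as 0 and did not pass (limma adjusted p = 0.140), nor did the mean of -1.63 without ZNF (limma adjusted p = 0.112). Beyond these genes, a list of 17 other tubulins had 10 with a row, of which 6 fell, 0 rose and 4 did not pass, beside 30.2% of all genes that fell. None of these calls held under any of the 3 rescalings or without the line as a block. The gene Tuba1c went from 48.3 FPKM to 13.97 in BBC, 38.6 to 7.39 in ZNF, and 89.1 to 9.41 in BCRF8C (-2.36 ± 0.70, limma adjusted p = 0.0348). Tuba4a (-2.22 ± 0.99) and Tubb4b, the second beta tubulin gene by level (-1.95 ± 0.39), fell at the same adjusted p. Tubb2b, a minor beta tubulin gene, had 1.91, 10.6 and 1.08 FPKM in BBC, ZNF and BCRF8C with DMSO and 5.97, 7.53 and 2.23 with BGJ398 (mean log2 ratio 0.48, limma adjusted p = 0.336), and was named after its values were seen.

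Among the actin genes, Actb was lower by the same order as Tubb5 without passing. Its 3 DMSO values given above stood against 633, 667 and 508 FPKM with BGJ398, so the groups did not overlap, and the log2 ratios were -2.31, -1.27 and -2.55. With BGJ398 the lines lay close together (mean 603 ± 83.5 FPKM, SD, n = 3 lines) compared with DMSO (2578 ± 840). The limma adjusted p was 0.0686. Removal of the expression trend left ratios of -0.66 in BBC, -0.48 in ZNF and -0.005 in BCRF8C, with a mean of -0.38 (limma adjusted p = 0.534). With BGJ398, Actb lay above 99.4% of the entries in BBC, 99.1% in ZNF and 99.6% in BCRF8C.

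Actg1 went from 70.7 (BBC), 106 (ZNF) and 477 FPKM (BCRF8C) to 35.2, 56.4 and 83.4 FPKM. The BCRF8C library with BGJ398 was above the BBC library with DMSO, so the groups overlapped. The mean ratio of -1.46 ± 0.90 (SD, n = 3 lines) did not pass (limma adjusted p = 0.0569) and was 0.14 with the expression trend removed. Actb was 44.4 times as abundant as Actg1 in BBC with DMSO and 18.0 times with BGJ398, with 15.2 and 11.8 times in ZNF and 6.26 and 6.10 times in BCRF8C. The gamma share of both actins was accordingly 2.20% and 5.27% in BBC, 6.18% and 7.80% in ZNF, and 13.8% and 14.1% in BCRF8C, so it differed more between lines than between agents.

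Profilin and cofilin stayed close to each other in level. Pfn1 went from 626 FPKM to 98.1 in BBC, 522 to 252 in ZNF, and 923 to 295 in BCRF8C. Cfl1 went from 524 (BBC), 388 (ZNF) and 770 FPKM (BCRF8C) to 82.1, 208 and 180 FPKM. Neither gene had overlapping groups, and in both the ratio was lowest in BBC (-2.66 for each) and nearest to 0 in ZNF (-1.05 for Pfn1 and -0.90 for Cfl1). In BCRF8C the sign turned after quantile normalization (0.63 for Pfn1 and 0.19 for Cfl1) and with the expression trend removed (0.78 and 0.27), where the means over lines were -0.08 and -0.19. Cfl1 fell, with a mean of -1.88 ± 0.90 (SD, n = 3 lines; limma adjusted p = 0.0471), and Pfn1, at -1.78 ± 0.82, did not pass (limma adjusted p = 0.0553). Both calls moved with single lines: Cfl1 lost its call without BBC (adjusted p = 0.304) and without BCRF8C (adjusted p = 0.192), and Pfn1 passed without ZNF (adjusted p = 0.0441). Pfn1 was 1.19 times Cfl1 in BBC with DMSO and 1.20 times with BGJ398, 1.35 and 1.21 times in ZNF, and 1.20 and 1.64 times in BCRF8C.

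Vimentin showed the deepest single ratio. Vim went from 138 to 7.02 FPKM in ZNF, 19.6 times lower, from 99.0 to 18.2 in BBC (5.45 times) and from 377 to 83.7 in BCRF8C (4.50 times). All DMSO libraries stood above all BGJ398 libraries, though BCRF8C with BGJ398 nearly reached BBC with DMSO. The log2 ratios were -4.11 in ZNF, -2.38 in BBC and -2.16 in BCRF8C, and Vim fell with a mean of -2.88 ± 1.07 (SD, n = 3 lines; limma adjusted p = 0.0348). In ZNF 0.338% of entries had a lower ratio, against 7.44% in BBC and 11.5% in BCRF8C. With the expression trend removed the ratio was -3.33 in ZNF, -0.72 in BBC and 0.01 in BCRF8C, so that on this scale it was apart from 0 by 2-fold only in ZNF. In ZNF, 95.7% of the entries lay below Vim with DMSO and 60.5% with BGJ398. Whether the lines differ in this response was not tested, since each has 1 library per agent.

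Stromal markers were followed because vimentin is also abundant in fibroblasts. Of the 10, 5 had a row, and their sum was between 35.3 and 158 FPKM with DMSO and between 21.3 and 92.5 with BGJ398, with Thy1, which T cells also express, the largest part in each library. The collagen gene Col1a1 was at 0.336 FPKM in ZNF, 0.941 in BBC and 0.0109 in BCRF8C with DMSO, and at 1.24, 4.39 and 7.66 with BGJ398, where Vim was lower. It was named after its values were seen, and the part of these markers in the Vim values was not tested.

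**Figure D3:**
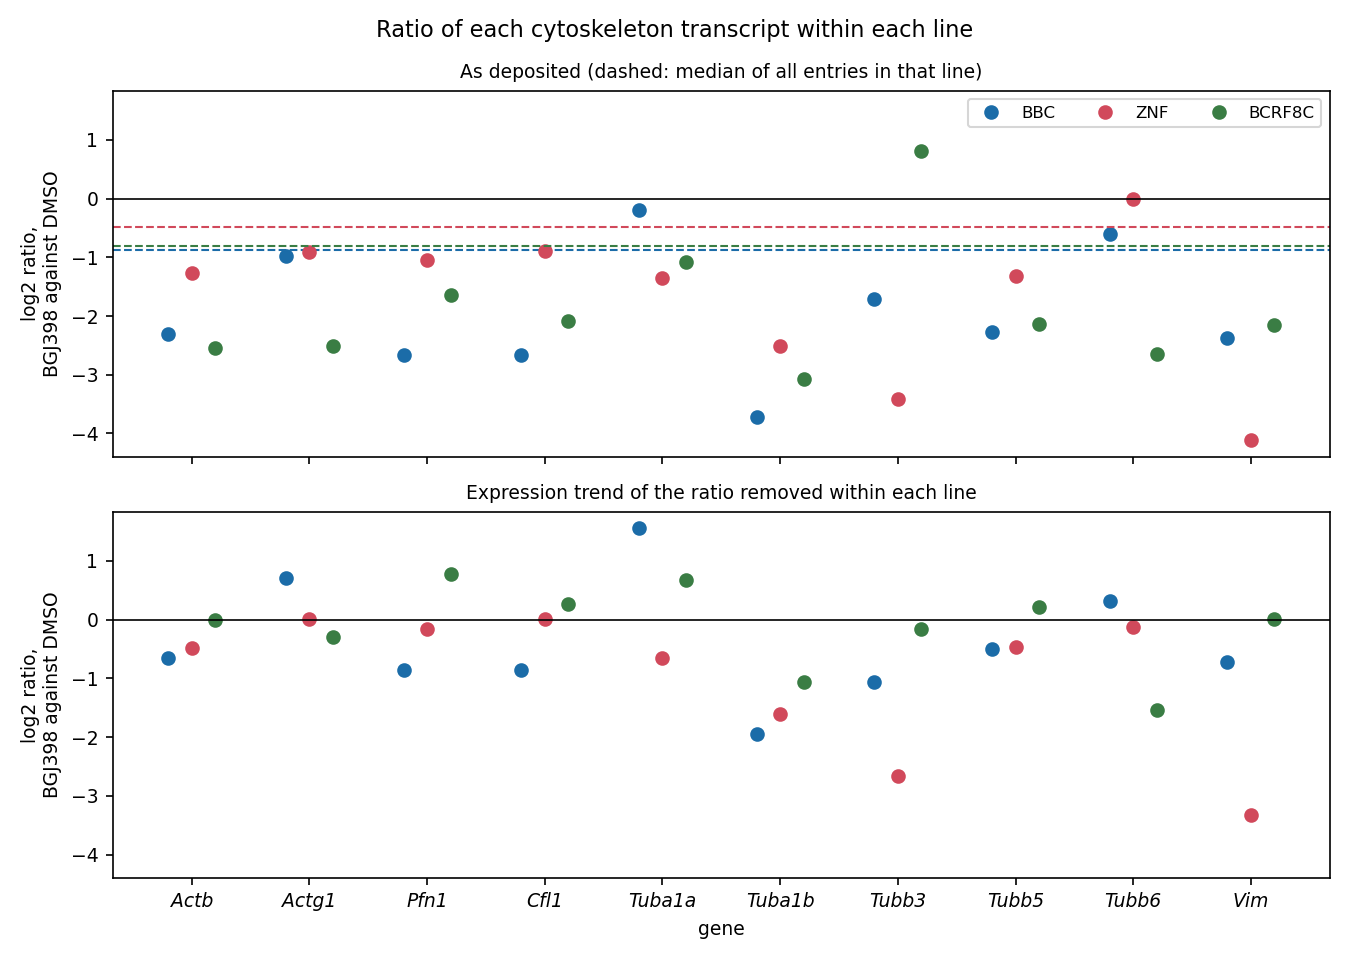
Log2 ratio of each of the 10 transcripts, BGJ398 against DMSO, in each line, as deposited (top, with the median of all entries of a line dashed) and with the expression trend removed within each line (bottom). On the lower panel Tuba1b stays below -1 in all 3 lines and Vim and Tubb3 lie lowest in ZNF, while Actg1 and Tuba1a have means above 0.

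Within single lines, 7 of the 10 genes were at least 2-fold lower in BBC, where 45% of all entries were, 7 of the 9 with a level above 0 in ZNF (16.3% of entries) and 9 of 10 in BCRF8C (43.5%). The shares of entries at 100 FPKM or more given above were 86.3%, 49.6% and 92.7%. Not all of the 10 are that abundant (Tubb3, Tubb6 and Tuba1a were below that level in every line, and Actg1 and Vim in BBC), and the counts were not tested against these shares. None of the 10 was at least 2-fold higher on this scale in BBC (8.79% of entries), ZNF (13.2%) or BCRF8C (21.7%), Tubb3 in BCRF8C being higher by less. With the expression trend removed, the counts were 2 in BBC (11.5% of genes), 3 in ZNF (4.2%) and 2 in BCRF8C (13.3%): Tuba1b in each line, Tubb3 in BBC and ZNF, Vim in ZNF and Tubb6 in BCRF8C.

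Other genes of the actin system were lower as well. Of 58 further actins and actin partners, 51 had a row and were tested, 26 fell, 0 rose and 25 did not pass, beside 30.2% of all genes that fell, with a median log2 ratio of -1.25 against -0.69 for all genes. Tmsb4x, which encodes the monomer-binding peptide thymosin beta 4, had 2254, 91.5 and 3483 FPKM in BBC, ZNF and BCRF8C with DMSO and 613, 29.0 and 486 with BGJ398 (-2.11 ± 0.64, limma adjusted p = 0.0399). Vasp, a filament elongation factor gene (-2.09 ± 0.89), and Actl6a, an actin-related subunit of chromatin remodelling complexes (-2.003 ± 0.82), fell with a limma adjusted p = 0.0348 each. With the expression trend removed, the list median was 0.05, beside 0.03 for all genes. The 5 lists of other cytoskeleton genes held these actin genes, other tubulins, tubulin partners, intermediate filaments and lamins, and SRF. Tested were 51, 10, 30, 5 and 9 genes, some of them on 2 lists. Of these, 53 different genes were called, all lower, beside 30.2% of all genes that fell. None was called under any of the 3 rescalings or without the line as a block. Without BBC 5 were called, where 2076 of 13512 genes passed, and without BCRF8C 4, where 1549 of 13779 did.

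Partners of tubulin were counted in the same way. Of 34 genes of tubulin folding and microtubule binding, 30 were tested, 18 fell, 0 rose and 12 did not pass (median -1.22), beside 30.2% of all genes that fell, and with the same loss of calls under rescaling or without the block. Tbca, a chaperone of beta tubulin, went from 114 FPKM to 24.1 in BBC, 222 to 67.9 in ZNF, and 222 to 57.4 in BCRF8C (-1.94 ± 0.25, limma adjusted p = 0.0348). The dynactin gene Dctn2 (-1.72 ± 0.81) and the gene of the microtubule destabilizer stathmin, Stmn1 (-1.69 ± 0.52), fell with limma adjusted p = 0.0350 and 0.0360. This list and the other tubulins had medians of -0.05 and -0.52 with the expression trend removed.

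Only 5 of 21 other intermediate filament and lamin genes had a row. The nuclear lamin genes Lmnb2 (-1.91 ± 0.78) and Lmnb1 (-1.64 ± 0.51) fell, each with a limma adjusted p = 0.0348, beside 30.2% of all genes that fell. Of the 5, 0 rose and 3 did not pass, and the list median of -0.69 was close to that of all genes (-0.69). Neither lamin call held under rescaling or without the block. Of 19 genes for SRF, its coactivators and targets, 9 were tested, 4 fell, 0 rose and 5 did not pass (median -0.98, and -0.04 with the expression trend removed), beside 30.2% of all genes that fell. These calls were also lost under rescaling or without the block. Of these 4, Flna, Vcl and Tpm1 are also on the actin list. The largest falls were those of Flna, which encodes the filament crosslinker filamin A (-1.82 ± 0.61, limma adjusted p = 0.0348), Srfbp1, an SRF-binding protein gene (-1.31 ± 0.51, limma adjusted p = 0.0358), and Vcl, the adhesion protein vinculin (-1.25 ± 0.68, limma adjusted p = 0.0439). Srf itself went from 11.5 (BBC), 7.58 (ZNF) and 10.3 FPKM (BCRF8C) to 3.48, 6.04 and 4.07 FPKM and did not pass (limma adjusted p = 0.0603). The immediate early SRF targets Egr1 (0.94, limma adjusted p = 0.0937) and Egr2 (1.22, limma adjusted p = 0.0568) had ratios above 0 without passing, and were named after their values were seen. Egr1 reached at most 2.88 FPKM and Egr2 at most 3.83, both in BCRF8C with BGJ398. Ratios above 0 at such low levels are not particular to them. Neuronal markers summed to 2.56, 0.550 and 0.835 FPKM in BBC, ZNF and BCRF8C with DMSO and to 6.38, 5.15 and 12.5 with BGJ398. Not every low sum did so: erythroid and megakaryocyte markers in ZNF went from 5.22 to 3.45 FPKM. The part of level in these ratios was not tested.

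**Figure D4:**
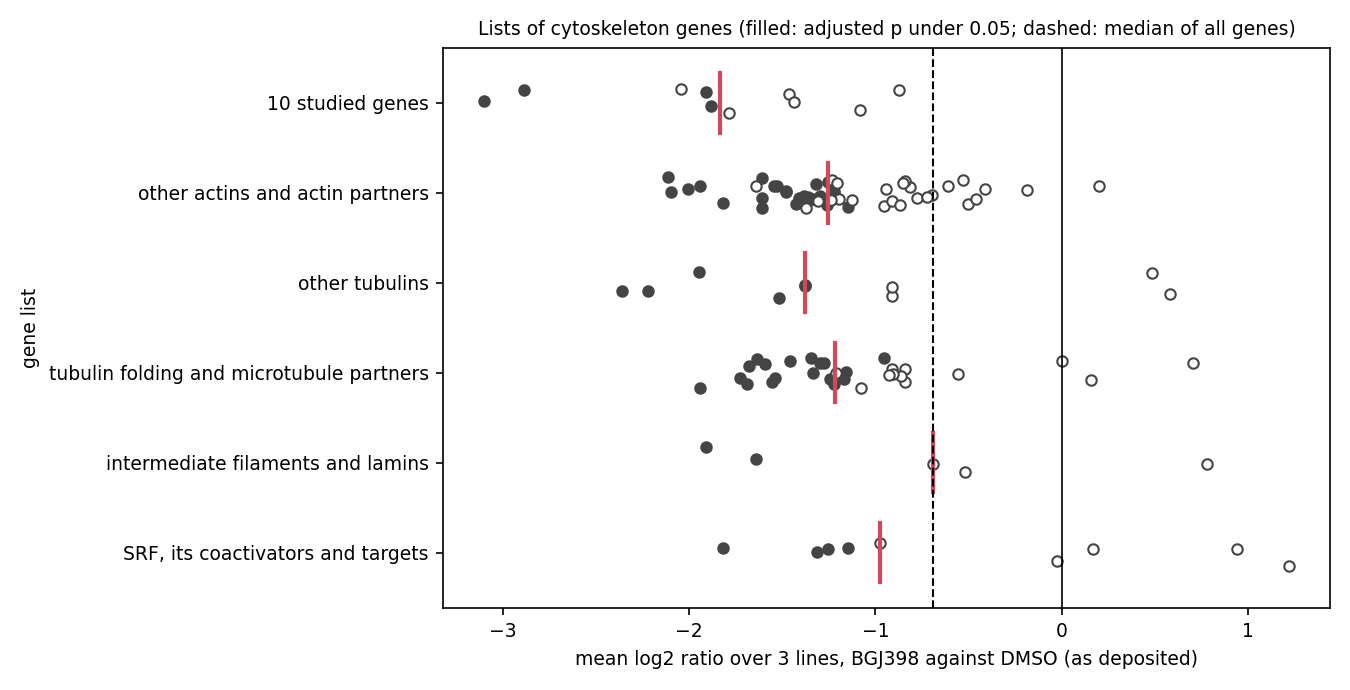
Mean log2 ratio over the 3 lines, BGJ398 against DMSO as deposited, for the 10 genes and for 5 lists of other cytoskeleton genes (1 point per gene, filled where the limma adjusted p was under 0.05, red bar for the list median, dashed line for the median of all genes tested at -0.69). The medians of the 10 genes and of the actin and tubulin lists lie left of the dashed line and no filled point lies above 0; Actg1 and Tuba1a turn above 0 with the expression trend removed.

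For Vim, Tubb3 and Tubb6, the tested genes whose levels ran most alike were also recorded, with Gm, Rik and pseudogene entries left out. The measure was the Pearson correlation of log2(FPKM + 1) over the 6 libraries, which share lines and agents in pairs. For Vim the most alike were Hmmr, the gene of the hyaluronan-mediated motility receptor (r = 0.9999), Csgalnact1 (0.994) and Kifc1, a mitotic kinesin gene (0.990). For Tubb3 they were Xrcc3 (0.988), Ttc8 (0.983) and Dennd1a (0.978), and for Tubb6 Snx32 (0.996), Mvp (0.994) and Plekho2 (0.990). Snx32 and Mvp, like Tubb6, were listed at 0 in both ZNF libraries, so their correlations rest in part on listed zeros. Whether these zeros are failed estimates is not known. Hmmr had 34.1, 38.5 and 55.4 FPKM in BBC, ZNF and BCRF8C with DMSO and 18.1, 12.7 and 31.3 with BGJ398, the same order of libraries as Vim over a narrower range. With 6 points and the named entries among 14232 genes, values this high describe the order of libraries only.

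In NCBIM37, the table places Actb on chromosome 5 from 143664794 to 143668433, Actg1 on chromosome 11 from 120207004 to 120209856, and Pfn1 on the same chromosome from 70465352 to 70468146. Tuba1b lies on chromosome 15 from 98761856 to 98764996 and Tuba1a on that chromosome from 98780272 to 98783982. Tubb5 lies on chromosome 17 from 35970871 to 35975251, Tubb6 on chromosome 18 from 67550371 to 67562402, Cfl1 on chromosome 19 from 5490485 to 5494029 and Vim on chromosome 2 from 13495554 to 13504453. The values cover whole genes and do not separate isoforms.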

How the data were processed

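RNA was sequenced from 6 libraries, 1 per line and agent. The authors deposited FPKM values for 17169 gene entries, and the submitters' processing notes name bcl2fastq, TopHat2 2.0.12 and NCBIM37. How FPKM were estimated, and on which annotation, is not given in the sources used here. Sequencing depth is unknown. All 6 value columns matched 1 sample title each.

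The 14232 genes averaging 1 FPKM or more were tested as log2(FPKM + 1) with limma (version 3.58.1, R 4.3.3; intensity trend), BGJ398 against DMSO with the line as a block. Benjamini-Hochberg adjustment ran over every gene tested, with calls under 0.05, and each adjusted p in the text is limma's. Repeat cultures are not named, so p-values hold no spread among repeats of a line. They reflect the spread among 3 lines, with each variance drawn by limma toward that of genes at a similar level. Actb, with an SD of 0.68 over lines and a limma SE of 0.75, thus did not pass. Cfl1, with an SD of 0.90 and a limma SE of 0.58, did. Both libraries of a line come from that line, and deviations from the group means correlated at 0.454, 0.541 and 0.549 within BBC, ZNF and BCRF8C, against at most -0.179 between lines. Deviations within an agent cancel out for each gene, so positive values within lines tend to make those between lines negative. The contrast is thus partly fixed by the calculation. The expression trend was removed by lowess (span 0.3). The script was tested on simulated data.

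The genes and lists were chosen with earlier results of these data known. All 10 genes were named. Of each list the called genes with the largest change in each direction were named, up to 3 each. Where entries shared a symbol, the one with the highest mean FPKM was used. Starts were raised by 1. Promoters came from RefSeq (GRCm38.p6) and transcripts from GENCODE M21, another build, whose coordinates were not joined to the table.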

Additional observations from a re-analysis of the deposited data

Results flagged for a closer look

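As deposited, Tubb3 was the only one of the 10 genes whose ratio had opposite signs in different lines: its log2 ratio, BGJ398 against DMSO, was -1.71 in BBC, -3.41 in ZNF and 0.80 in BCRF8C. The difference between the lines was not tested, because each line has 1 library per agent. With the expression trend removed Tubb3 was below 0 in all 3 lines (-1.06, -2.65 and -0.16), while Actg1, Pfn1, Cfl1, Tuba1a, Tubb5, Tubb6 and Vim had mixed signs. After median-of-ratios scaling Actg1, Tuba1a and Tubb6 had mixed signs as well as Tubb3.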

How the results depend on the processing

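Among alternatives that kept the scale of the deposited values, the counts held: with a pseudocount of 0.1, without a filter, or at a mean of at least 5 FPKM, 4 of the 10 genes fell. Of all genes, 4151 of 14232, 3979 of 17169 and 4910 of 9109 fell in these settings. Among entries above 0 in all 6 libraries, where 42.4% of all genes fell, 7 of the 9 left did, with Actg1, Pfn1 and Tubb3 added. Scaling ended all calls of the 10 genes and of the other cytoskeleton genes, with 0 after median-of-ratios scaling, quantile normalization and removal of the expression trend (6, 1 and 1 of the 10 at an unadjusted p under 0.05 in limma). Of all genes 4, 3 and 0 passed (5756, 3340 and 3084 at an unadjusted p under 0.05), against 5236 as deposited. Without the line as a block, which pairs the libraries, 7 of all genes, 0 of the 10 and 0 of the other cytoskeleton genes passed (6 of the 10 at an unadjusted p under 0.05). Without BBC 2076 of 13512 genes passed, without ZNF 5045 of 14891 and without BCRF8C 1549 of 13779. Among them were 2, 5 and 3 of the 10, and 5, 62 and 4 of the other cytoskeleton genes, against 53 with all lines. Tuba1b and Vim kept their calls without any 1 line. Actg1 turned to 0.14 with the expression trend removed, and Tuba1a to 0.36 after quantile normalization and 0.52 with the trend removed. Genes at least 2-fold lower within a line numbered 3 in ZNF and 2 in BCRF8C after quantile normalization, and 2, 3 and 2 in BBC, ZNF and BCRF8C with the trend removed. Between lines, 1 gene passed for ZNF against BBC with a pseudocount of 0.1 and 1 for BCRF8C against BBC after quantile normalization. For BCRF8C against ZNF, 2 passed among entries above 0 in all libraries and 0 after median-of-ratios scaling or quantile normalization. The cause was not tested. Depth is unknown, so no interval for counting error was computed, and low values such as Tubb3 in BCRF8C have no stated precision.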
